A study of Mus musculus with 60 samples.

Results

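Cytosolic ribosomal protein genes were examined in 60 RNA-seq libraries of mouse prefrontal cortex, taken on postnatal day 25. Members were the rows whose Ensembl identifier carries a protein-coding symbol of the form Rpl or Rps plus a number, with the stalk genes Rplp0, Rplp1 and Rplp2 and with Rpsa. Pseudogenes and the Rps6k kinases were left out. In all, 82 of 18088 genes met the rule, 50 of the large subunit and 32 of the small one, and 81 of them averaged at least 50 normalized counts. Another 2 annotated genes of the right form, Rpl10l and Rpl39l, were not analysed here.

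The libraries formed 12 groups of 5. Each group combined a Trip12 genotype label (HT, heterozygous, or WT, wild type), a sex and a treatment with fluoxetine, lithium or vehicle. All mice were C57BL/6J, and pups received the treatment through their mother's milk from postnatal day 3 until day 24, which is 3 weeks. Fluoxetine is an antidepressant that blocks serotonin reuptake, lithium is used to treat bipolar disorder, and Trip12 encodes a ubiquitin ligase. The kind of Trip12 allele and the litters are not given in the sources used here, so a p-value here covers only library-to-library spread, which may be technical.

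Trip12 itself had a higher mean in libraries labelled HT than in those labelled WT in 6 of 6 pairs of groups, with limma log2 fold changes of 0.08 to 0.13 and adjusted p-values of 0.123 to 0.325. Directions between genotypes, and every statement on HT or WT, therefore rest on the labels. Depth ran from 32.7 to 36.6 M reads (M, mega) in the 20 fluoxetine libraries, from 25.1 to 35.9 M in the 20 lithium libraries and from 26.6 to 30.99 M in the 20 vehicle libraries. Depth thus moved with treatment. Every fluoxetine library was deeper than every vehicle library, so depth and fluoxetine against vehicle cannot be told apart. Among females every lithium library was deeper than every vehicle library, so the same holds there for lithium. All 8 markers of cortical excitatory neurons were present, with sums over the list of 115784 to 184622 normalized counts. The 10 striatal markers summed to 6576 to 11262 normalized counts in HT fluoxetine males (median 7443), against 6188 to 20523 in HT vehicle males (median 18143). In WT vehicle males they summed to 5917 to 9063 (median 6241). Group medians of the sum over 10 olfactory bulb markers ran from 3082 in WT lithium males to 14622 in WT lithium females. For 8 oligodendrocyte markers the group medians were 97894 to 116798 in lithium groups. They were 119403 to 148543 in fluoxetine groups and 120495 to 150223 in vehicle groups, and single libraries overlapped. The part of depth and of dissection in the results below was not tested beyond the values given beside them. In bulk tissue, fewer cells of a type and less RNA per cell cannot be told apart.

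A cytosolic ribosome joins a large and a small subunit, and each subunit is built from ribosomal RNA and one copy of most ribosomal proteins. The proteins are needed in matched amounts, and their genes are expressed in every cell type. Their mRNAs begin with a run of pyrimidines, the 5' terminal oligopyrimidine or TOP tract, through which the mTOR kinase controls their translation. In neurons ribosomal protein mRNAs are found in the cell body and also in axons and dendrites.

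Many ribosomal protein genes have near-identical copies, and the copies set what a gene-level value can show. Of the 82 members 34 had another annotated gene in the table with at least 95% identity over at least 80% of the coding sequence. Sequences are shown for Rpl10, whose protein joins the large subunit late in its assembly, because its own value and that of its copy parted. They are coding bases 437 to 477 (GRCm38) of Rpl10 (chrX:74270812-74273135, plus strand), of Rpl10-ps3 (chr9:50344201-50344968, minus strand, annotated as protein-coding) and of Rpl10-ps6 (chr19:37295155-37295796, minus strand, a processed pseudogene). The capital marks coding base 457.
Rpl10: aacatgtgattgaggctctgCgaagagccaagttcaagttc
Rpl10-ps3: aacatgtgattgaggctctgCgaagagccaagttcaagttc
Rpl10-ps6: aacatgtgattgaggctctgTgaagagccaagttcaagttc
Rpl10-ps3 had 0 mismatches to Rpl10 over the 642 coding bases, and Rpl10-ps6 differed by the substitution C457T, counted from the first coding base. Of the words of 31 bases in the Rpl10 transcript 92.3% also occurred in transcripts of its copies.

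The stretches around the annotated starts are shown for 5 members called lower in HT under fluoxetine, those with the smallest p-values among members with an entry in the RefSeq table (GRCm38.p6). Each gives 80 bases before the start and 20 after it on the gene's strand. Capitals mark the letters CCGGAAG, the core that ETS family factors bind, and CTTTCC, a pyrimidine run of the TOP kind.
Rpl39, chrX:37085203-37085302, minus strand: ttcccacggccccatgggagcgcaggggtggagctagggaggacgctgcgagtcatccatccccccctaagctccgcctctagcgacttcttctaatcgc
Rpl10, chrX:74270736-74270835, plus strand: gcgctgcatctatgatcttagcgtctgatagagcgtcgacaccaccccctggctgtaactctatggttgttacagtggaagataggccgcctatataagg
Rps25, chr9:44407634-44407733, plus strand: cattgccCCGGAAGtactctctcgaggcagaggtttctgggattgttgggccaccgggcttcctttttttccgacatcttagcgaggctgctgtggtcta
Rps18, chr17:33955646-33955745, minus strand: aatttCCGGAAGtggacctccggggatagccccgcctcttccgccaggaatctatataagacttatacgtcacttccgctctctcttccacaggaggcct
Rpl15, chr14:18270967-18271066, minus strand: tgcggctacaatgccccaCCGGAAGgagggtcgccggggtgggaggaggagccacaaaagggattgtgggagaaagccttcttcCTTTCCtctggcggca
Of the 82 members 62 had an entry. CCGGAAG on either strand, within 250 bases before and 50 after a start, occurred in 40.3% of them and in 9.93% of the 27025 genes of the table. On the gene's own strand within 50 bases of a start, CTTTCC occurred in 30.6% of the 62 members and in 5.43% of all genes, and CTCTTT likewise in 30.6% and 4.68%. CTTTTC there occurred in 14.5% and 4.32%. The letters TATAAA in the 50 bases before the start were found in 1.61% of members and 3.15% of all genes. AAGATGGC, the core bound by YY1, was found on either strand in 9.68% of members and 3.19% of all genes. A match describes these letters only.

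The 82 genes together took 0.687 to 1.07% of the reads of a library, with a median of 0.828%. Levels between genes are compared per kilobase of transcript. The median member had 3548 normalized counts per kilobase, averaged over the 60 libraries. The highest were Rplp1, an acidic stalk protein, at 11937, then Rps15 at 8983, Rpl41 at 8896, Rps29 at 7903 and Rpl19 at 7257 normalized counts per kilobase. The lowest was Rpl3l, the paralogue of Rpl3 known from striated muscle, at 5.38 normalized counts per kilobase. Above it came Rpl12 at 232, Rps27l at 255, Rps27 at 270 and Rpl7l1 at 391 normalized counts per kilobase. Rpl12 and Rps27 share their coding sequences with copies that were listed higher than they were. Gm10275, the copy of Rpl12, averaged 3101 normalized counts against 288 for Rpl12, and Rps27rt averaged 1082 against 93.3 for Rps27.

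Within groups the members moved together from library to library. The deviation of a member from its group mean had a median correlation of 0.751 with the mean deviation of the other members, over 60 libraries, and 75 of 82 members were above 0.5. The libraries' depth and normalization are shared by all members, so the correlation is a description. The lowest were Rps27 at -0.11, Rpl3l at 0.067, Rpl5 at 0.16, Rpl35 at 0.237 and Rpl13 at 0.274, and Rpl10 stood at 0.329.

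The mean log2 deviation of the 82 members from their average over all libraries gives 1 value per library. In fluoxetine HT females it was -0.30, -0.24, -0.21, -0.19 and -0.15, and in fluoxetine HT males it was -0.27, -0.23, -0.17, -0.10 and -0.0036. In vehicle HT females it was 0.014, 0.030, 0.061, 0.117 and 0.119, and in vehicle HT males -0.15, -0.037, -0.032, 0.013 and 0.090. Thus 7 of 10 fluoxetine HT libraries lay below the lowest vehicle HT library, and 9 of 10 below the lowest once HT vehicle male replicate 1 was left out. Fluoxetine WT females had -0.24, -0.22, -0.20, -0.16 and -0.12, and fluoxetine WT males had -0.0092, -0.0063, 0.0063, 0.020 and 0.368. Vehicle WT females had -0.30, -0.041, 0.017, 0.082 and 0.15, and vehicle WT males had 0.066, 0.089, 0.099, 0.197 and 0.199. No fluoxetine WT library lay below the lowest vehicle WT library, which was WT vehicle female replicate 1. Without that library 5 of 10 did, all of them females. The value of 0.368 is WT fluoxetine male replicate 2, which stood apart from the other 4 of its group.

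**Figure D1:**
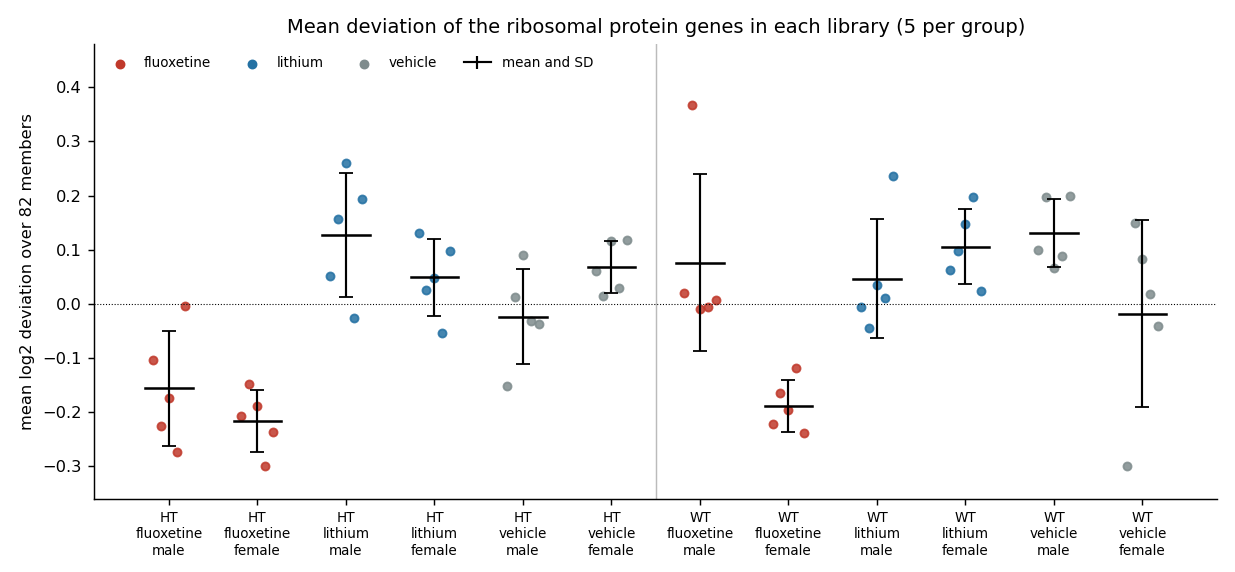
Mean log2 deviation over the 82 ribosomal protein genes (vertical axis) in each library, by genotype label, treatment and sex; points are libraries in replicate order, the bar is the mean and the whisker the SD of 5. Fluoxetine HT libraries of both sexes and fluoxetine WT females sit low, and WT fluoxetine male replicate 2 at 0.368 is the highest of all 60.

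The first comparison asks what fluoxetine changed in mice labelled HT. Of the 82 members 43 fell and 0 rose (limma, Benjamini-Hochberg adjusted p under 0.05), where 10.2% of all 17804 genes tested were called, 5.54% lower and 4.7% higher. The median log2 fold change of the members was -0.20, a level 12.8% lower, against -0.0036 for all genes. 81 of the 82 fold changes were negative. Both subunits took part: 24 of 50 large-subunit genes fell, with a median of -0.16, and 19 of 32 small-subunit genes fell, with a median of -0.21.

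Rpl39, a short protein of the large subunit that lines the exit tunnel, had the smallest p. It had 542, 663 and 853 normalized counts as lowest, median and highest of the 10 fluoxetine HT libraries, against 792, 907 and 985 in the 10 vehicle HT libraries. The ranges overlapped at their ends. The log2 fold change was -0.43 ± 0.07 (SE, limma adjusted p = 0.00015). Rpl3, which lies near the peptidyl transferase centre, had 8038, 8844 and 9268 normalized counts in fluoxetine HT libraries against 9365, 10117 and 10659 in vehicle HT libraries. Every fluoxetine HT library was below every vehicle HT library. Its log2 fold change was -0.22 ± 0.04 (limma adjusted p = 0.000199). Rps27a, made as a fusion with ubiquitin, was the other member with no overlap in this comparison, with a log2 fold change of -0.32 ± 0.06 (limma adjusted p = 0.00088). How many of all genes had no overlap was not counted.

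On the small subunit, Rps25, a protein that viral internal entry sites need, had 1637, 1854 and 2089 normalized counts in fluoxetine HT libraries against 2075, 2286 and 2404 in vehicle HT libraries. Only the ends of the ranges met. It fell by a log2 fold change of -0.28 ± 0.05 (limma adjusted p = 0.000621). Rps18, a protein of the small subunit's head, had 1964, 2126 and 2547 normalized counts against 2071, 2769 and 2996 in vehicle HT libraries, a log2 fold change of -0.30 ± 0.06 (limma adjusted p = 0.000621). The one low vehicle library was HT vehicle male replicate 1. Rps19, the gene most often mutated in human Diamond-Blackfan anaemia, fell by a log2 fold change of -0.30 ± 0.06 (limma adjusted p = 0.00109).

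The stalk recruits the GTPases that drive translation. Its acidic protein Rplp1 had 2984, 4091 and 5792 normalized counts in fluoxetine HT libraries against 3133, 6012 and 7601 in vehicle HT libraries. The ranges overlapped through 1 low vehicle library and 2 high fluoxetine libraries. Rplp1 fell by a log2 fold change of -0.46 ± 0.11 (limma adjusted p = 0.0069). With the libraries' length and GC slopes as covariates its value was -0.26. The other 2 stalk genes did not pass in the main fit. Rplp0 had a log2 fold change of -0.14 ± 0.05 (limma adjusted p = 0.0601) and Rplp2 one of -0.20 ± 0.08 (limma adjusted p = 0.108). Rplp0 passed by DESeq2, with depth as a covariate, under quantile normalization and in a fit of only the libraries compared. Rplp0 and Rplp2 each passed with WT fluoxetine male replicate 2 and HT vehicle male replicate 1 both left out.

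Paralogue pairs differed in whether each member passed. Rpl22l1, an RNA-binding paralogue of Rpl22, had 236, 346 and 438 normalized counts in fluoxetine HT libraries against 371, 461 and 548 in vehicle HT libraries, and fell by -0.42 ± 0.09 on the log2 scale (limma adjusted p = 0.00204). Rpl22 had a log2 fold change of -0.09 ± 0.05 (limma adjusted p = 0.225). Rpl7l1 fell by a log2 fold change of -0.15 ± 0.05 (limma adjusted p = 0.0287), and Rpl7 had one of -0.11 ± 0.04 (limma adjusted p = 0.098). Rps27l fell by -0.34 ± 0.09 (limma adjusted p = 0.0135). Rpl36a fell by a log2 fold change of -0.27 ± 0.07 (limma adjusted p = 0.00761), and its autosomal paralogue Rpl36al had one of -0.13 ± 0.06 (limma adjusted p = 0.176). Rpl3l, at a mean of 7.39 normalized counts, had a log2 fold change of -0.13 ± 0.29 (limma adjusted p = 0.833). Rpl22l1 lost its call with depth as a covariate, Rps27l with depth and with the slopes, and Rpl7l1 and Rpl36a with the slopes. Rpl7l1 also lost it in 5 of 20 fits that left out 1 library of the HT vehicle or fluoxetine groups. Rpl7 gained a call in a fit of only the libraries compared. The difference within each pair was not tested. All 4 X-linked members, Rpl10, Rpl36a, Rpl39 and Rps4x, fell, Rps4x by a log2 fold change of -0.18 ± 0.05 (limma adjusted p = 0.00777).

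Among the most abundant members per kilobase, Rps15 fell by a log2 fold change of -0.21 ± 0.07 (limma adjusted p = 0.0306), and Rpl41 had -0.24 ± 0.09 (limma adjusted p = 0.0622). Rpl41 was called by DESeq2, with depth as a covariate, with replicate number as a block and under quantile normalization. It also passed in a fit of only the libraries compared and without both WT fluoxetine male replicate 2 and HT vehicle male replicate 1. With the slopes Rps15 was at -0.076 and not called, with depth it was at -0.38, and it lost its call in 9 of 20 fits that left out 1 library. Rpl19, on the outside of the large subunit, had a log2 fold change of -0.07 ± 0.05 (limma adjusted p = 0.474). With depth as a covariate Rpl19 was at -0.23 and called, and with the slopes it was at 0.017. Rps29, with 1647, 2336 and 2858 normalized counts in fluoxetine HT libraries against 1760, 2955 and 3685 in vehicle HT libraries, fell by -0.33 ± 0.09 (limma adjusted p = 0.0109). Its vehicle minimum was again HT vehicle male replicate 1, and with the slopes Rps29 was at -0.18 and not called.

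Depth and length slope of the libraries moved with these values. Fluoxetine HT libraries were deeper than vehicle HT libraries, and their slope of log2 level on gene length, per SD of log2 exonic length, was 0.0091 to 0.065 against -0.022 to 0.033 in vehicle HT libraries. With depth as a covariate 52 members fell, with a median of -0.30, and 778 of all genes were called, against 1824 in the main fit. Depths of fluoxetine and vehicle libraries did not overlap, so depth and fluoxetine cannot be told apart by that fit. With each library's length and GC slopes as covariates 31 members fell, with a median of -0.10, and 1460 of all genes were called.

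**Figure D2:**
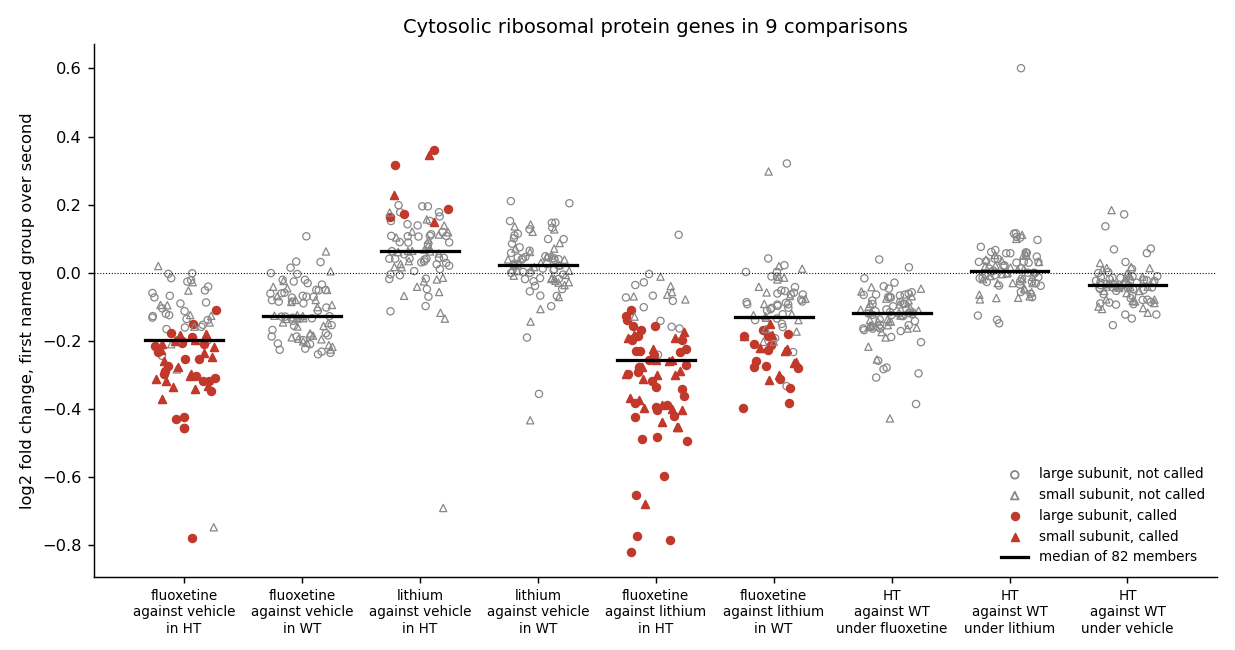
Log2 fold change (vertical axis) of each of the 82 ribosomal protein genes in 9 comparisons, first named group over second; filled red symbols passed limma's adjusted p of 0.05 and the bar is the median of the members. The medians were -0.20 and -0.26 for fluoxetine against vehicle and against lithium in HT, and the lone points at the bottom of the first comparison are Rpl10 and Rps27.

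In mice labelled WT, fluoxetine gave 0 calls among the 82 members, where 0.208% of all genes were called, 0.0843% higher and 0.124% lower (limma). The median log2 fold change was -0.13, 76 of 82 fold changes were negative, and 40 members had an unadjusted p under 0.05. The median of all genes was -0.0025. Here and in the comparisons below, shares of all genes by sign or at an unadjusted p under 0.05 were not counted. edgeR and DESeq2 also gave 0 calls. The smallest p belonged to Rps25, with 1718, 1993 and 3041 normalized counts in fluoxetine WT libraries against 1951, 2393 and 2692 in vehicle WT libraries. The highest of the fluoxetine values was WT fluoxetine male replicate 2, above every vehicle WT library. The log2 fold change of Rps25 was -0.20 ± 0.05 (limma adjusted p = 0.089), followed by Rpl37a at -0.23 ± 0.07 (limma adjusted p = 0.133) and Rps18 at -0.21 ± 0.06 (limma adjusted p = 0.134). Without WT fluoxetine male replicate 2 the count was 18 lower, without WT vehicle female replicate 1 it was 5, and with WT fluoxetine male replicate 2 and HT vehicle male replicate 1 both left out it was 26. In that last fit 671 of all genes were called, against 37 in the main fit. The median was -0.22 with depth as a covariate and -0.077 with the slopes.

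The difference of the fluoxetine effect between the genotype labels was tested as an interaction. It gave 0 calls among members, and 0% of all genes were called. The median interaction of the members was -0.084 on the log2 scale (-0.048 with the slopes), negative in 73 of 82, and 6 members had an unadjusted p under 0.05. The smallest were Rpl10 at -0.56 ± 0.21 (unadjusted p = 0.00946, limma adjusted p = 1), Rpl3 at -0.14 ± 0.05 (unadjusted p = 0.00952) and Rpl10a at -0.26 ± 0.10 (unadjusted p = 0.0148). A call in HT and none in WT is thus not shown to be a difference between the labels.

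Fluoxetine was next set against lithium, which shares the fluoxetine libraries with the comparisons above. In HT 63 members fell and 0 rose, where 24.8% of all genes were called, 12.6% lower and 12.2% higher (limma). The median log2 fold change was -0.26, with 38 of 50 large-subunit and 25 of 32 small-subunit genes lower. With the slopes the median was -0.14, with 41 members lower and 1 higher, and 3924 of all genes were called, against 4419 in the main fit. In 10 members every fluoxetine HT library lay below every lithium HT library: Rpl7l1, Rpl22l1, Rpl31, Rpl37a, Rpl38, Rpl39, Rps4x, Rps18, Rps19 and Rps29. The share of all genes separated in this way was not counted. Rpl22l1 had 236, 346 and 438 normalized counts in fluoxetine HT libraries and 536, 583 and 675 in lithium HT libraries. Its log2 fold change of -0.79 ± 0.09 had the smallest p of the members (limma adjusted p = 3.89e-08). Rpl39 followed with 542 to 853 normalized counts against 878 to 1101 in lithium HT libraries, a log2 fold change of -0.60 ± 0.07 (limma adjusted p = 6.19e-08).

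Rps29, which sits in the small subunit's head, had 1647 to 2858 normalized counts in fluoxetine HT libraries against 3313 to 4393 in lithium HT libraries. It fell by a log2 fold change of -0.68 ± 0.09 (limma adjusted p = 2.41e-07). Rps19 had 1091 to 1419 against 1451 to 1901 normalized counts, a log2 fold change of -0.45 ± 0.06 (limma adjusted p = 3.66e-07). All 3 stalk genes fell in this comparison, Rplp1 by -0.77 ± 0.11 (limma adjusted p = 1.83e-06), Rplp2 by -0.39 ± 0.08 (limma adjusted p = 0.000258) and Rplp0 by -0.22 ± 0.05 (limma adjusted p = 0.000428). With the slopes these were -0.51 for Rplp1, -0.21 for Rplp2 and -0.12 for Rplp0, all still called. Rpl19 again did not pass, at -0.07 ± 0.05 (limma adjusted p = 0.352).

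In WT 25 members fell and 0 rose against lithium, where 9.76% of all genes were called, 5.41% lower and 4.35% higher (limma). The median log2 fold change was -0.13, with 15 of 50 large-subunit and 10 of 32 small-subunit genes lower. With the slopes the median was -0.060 and 17 were lower, and with depth as a covariate 40 were lower. In the same order 1914 and 1228 of all genes were called, against 1738 in the main fit. The smallest p was that of Rps15a, a small-subunit protein, with 2510, 2903 and 3323 normalized counts in fluoxetine WT libraries against 3000, 3485 and 3688 in lithium WT libraries. Its log2 fold change was -0.26 ± 0.05 (limma adjusted p = 0.00133). Rpl39 fell by -0.34 ± 0.07 (limma adjusted p = 0.00187), Rps25 by -0.23 ± 0.05 (limma adjusted p = 0.0039; -0.15 with the slopes) and Rpl22l1 by -0.40 ± 0.09 (limma adjusted p = 0.00397). Without WT fluoxetine male replicate 2 the count was 50. It was 15, 16 and 15 without WT fluoxetine male replicates 1, 3 and 5, and 12 without WT lithium male replicate 5.

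**Figure D3:**
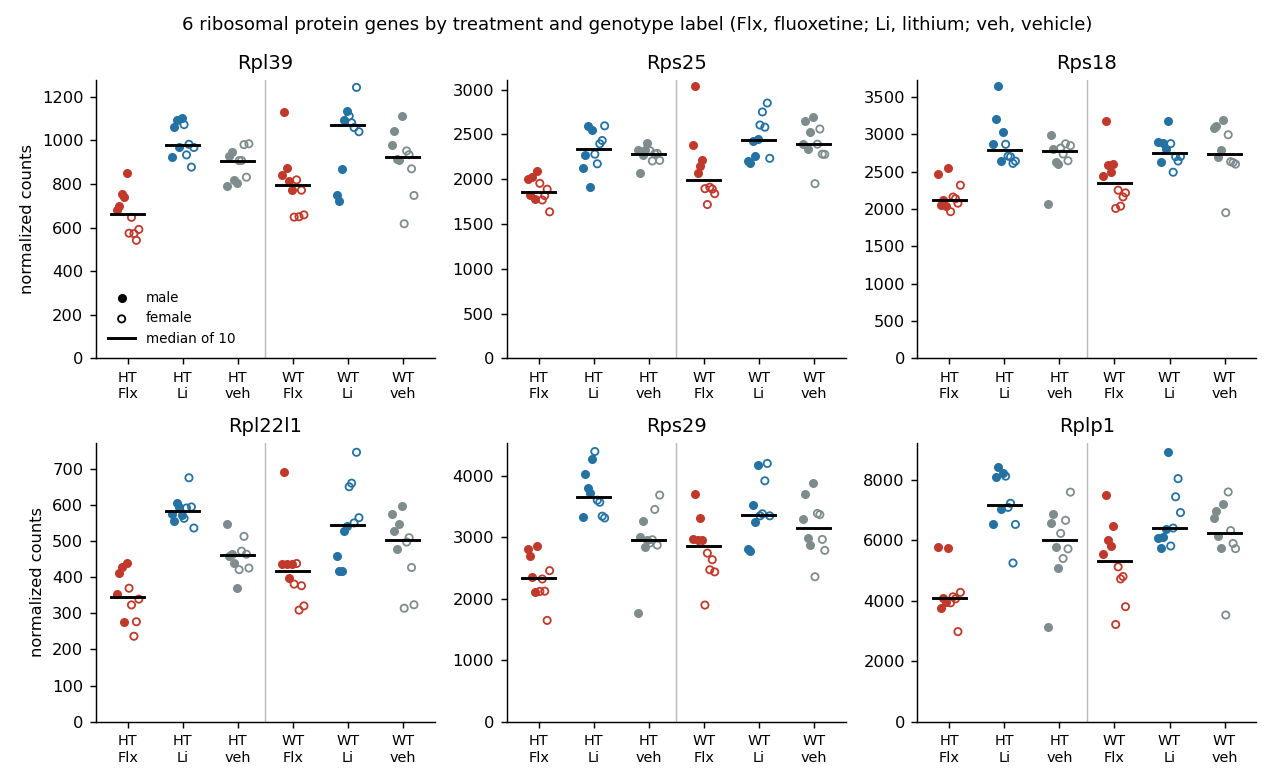
Normalized counts (vertical axes) of 6 ribosomal protein genes in each library, by genotype label and treatment; filled points are males, open points females, and the bar is the median of 10 libraries. In HT the fluoxetine libraries of Rpl39, Rps18, Rpl22l1 and Rps29 all lie below the lithium libraries, and for Rpl22l1 the medians were 346 under fluoxetine, 583 under lithium and 461 under vehicle.

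Lithium against vehicle moved few members. In HT 8 rose and 0 fell, where 14.6% of all genes were called, 7.44% higher and 7.14% lower (limma), so the share of members is near that of all genes. The median log2 fold change of the members was 0.064. Rpl22l1 had 536, 583 and 675 normalized counts in lithium HT libraries against 371, 461 and 548 in vehicle HT libraries, with an overlap at the ends. It rose by a log2 fold change of 0.36 ± 0.09 (limma adjusted p = 0.00503). Rps29 had 3313, 3660 and 4393 normalized counts against 1760, 2955 and 3685, a log2 fold change of 0.35 ± 0.09 (limma adjusted p = 0.00506).

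Rps2, at the mRNA entry of the small subunit, rose by a log2 fold change of 0.23 ± 0.06 (limma adjusted p = 0.00831) and Rpl29 by 0.16 ± 0.05 (limma adjusted p = 0.0214). Rpl31, Rps26, Rpl37a and Rplp1 rose too, Rplp1 with an adjusted p at the threshold (limma adjusted p = 0.05). Rps2 and Rpl29 lost their calls with depth as a covariate, Rps2 also in a fit of only the libraries compared, and Rpl29 also without HT lithium female replicate 1. The count fell to 3 without HT lithium female replicate 1, to 4 without any one of HT lithium male replicates 2 and 5 and HT vehicle female replicates 2, 3 and 4, and to 5 without HT vehicle female replicate 1 or HT vehicle male replicate 5. It was 13 without WT vehicle female replicate 1. With depth as a covariate 2 members rose and 3 fell, with a median of 0.016, and with the length and GC slopes 9 rose and 4 fell, with a median of 0.039.

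In WT lithium gave 0 calls, where 4.57% of all genes were called, 2.46% higher and 2.11% lower (limma), and 11 members had an unadjusted p under 0.05. edgeR and DESeq2 gave 0 as well. The smallest p-values were those of Rpl17 at -0.19 ± 0.07 (limma adjusted p = 0.0883), Rps24 at -0.14 ± 0.05 (limma adjusted p = 0.12) and Rplp2 at 0.20 ± 0.08 (limma adjusted p = 0.143). The interaction of lithium and genotype gave 0 calls, with 0% of all genes called and 1 member at an unadjusted p under 0.05. Its smallest p was that of Rps26, with 0.16 ± 0.07 on the log2 scale (limma adjusted p = 0.883), then Rps29 at 0.21 ± 0.13 and Rpl13a at 0.16 ± 0.09 (limma adjusted p = 0.902 for both).

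Genotype labels were compared within each treatment. Under fluoxetine 0 members were called, where 0.135% of all genes were, 0.0618% higher and 0.073% lower (limma). Their median log2 fold change was -0.12 (-0.049 with the slopes), 80 of 82 were negative and 38 had an unadjusted p under 0.05. edgeR gave 0 calls and DESeq2 gave 3. Rpl5, which with Rpl11 and the 5S ribosomal RNA binds Mdm2, had 1036, 1138 and 1389 normalized counts in HT fluoxetine libraries against 1141, 1451 and 1597 in WT fluoxetine libraries, and a log2 fold change of -0.28 ± 0.07 (limma adjusted p = 0.0649). Rpl5 also has a copy listed higher than itself, Gm15500, with a mean of 3819 normalized counts against 1323. Rpl39 had -0.26 ± 0.07 (limma adjusted p = 0.103) and Rps19 -0.22 ± 0.06 (limma adjusted p = 0.104). The count was 1 without any one of HT fluoxetine male replicate 5, HT vehicle male replicate 1, WT fluoxetine male replicate 1 and WT vehicle female replicate 1.

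Under lithium 0 members were called between the labels, where 0.573% of all genes were, 0.275% higher and 0.298% lower (limma), with a median of 0.0044 and 4 members at an unadjusted p under 0.05. The smallest p-values were those of Rpl35 at -0.15 ± 0.05 (limma adjusted p = 0.133), Rpl4 at -0.07 ± 0.03 (limma adjusted p = 0.279) and Rpl36al at -0.14 ± 0.06 (limma adjusted p = 0.294). The count was 1 without HT lithium male replicate 3. Under vehicle 0 members were called, where 0.152% of all genes were, 0.101% higher and 0.0506% lower, with a median of -0.037 (-0.0078 with the slopes) and 4 at an unadjusted p under 0.05. Rpl13a had -0.15 ± 0.07 (limma adjusted p = 0.482), Rps24 -0.12 ± 0.05 (limma adjusted p = 0.528) and Rps26 -0.11 ± 0.05 (limma adjusted p = 0.534). edgeR and DESeq2 gave 0 in both comparisons.

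Averaged over genotype labels and treatments, 81 of 82 members had a positive fold change of male over female, with a median log2 value of 0.061, and 31 had an unadjusted p under 0.05. The median was 0.012 with the slopes and 0.104 with depth as a covariate. Only Rps18 was called, where 1.19% of all genes were called, 0.769% higher and 0.416% lower (limma), at 0.13 ± 0.03 (limma adjusted p = 0.0382). Rps21 had 0.17 ± 0.05 (limma adjusted p = 0.0503) and Rps14 had 0.14 ± 0.04 (limma adjusted p = 0.0684). Rps18 lost its call with the slopes, under quantile normalization and in 16 of the 60 fits that left out 1 library, and the count of members called ran from 0 to 10, the 10 without HT vehicle male replicate 1.

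Whether a drug effect differed between the sexes was tested in each genotype label, and all 4 interactions gave 0 calls with 0% of all genes called (limma). The median for fluoxetine, male over female, was 0.14 in HT and 0.12 in WT on the log2 scale, with 15 and 13 members at an unadjusted p under 0.05. With the slopes the medians were 0.014 in HT and -0.036 in WT, and with depth as a covariate 0.119 in HT and 0.111 in WT. In WT the median was 0.042 with WT fluoxetine male replicate 2 and HT vehicle male replicate 1 left out. In HT the smallest p belonged to Rpl39 at 0.45 ± 0.14, Rps28 at 0.42 ± 0.15 and Rpl10a at 0.40 ± 0.14 (limma adjusted p = 0.565 for each). In WT it belonged to Rpl26 at 0.33 ± 0.11 (limma adjusted p = 0.589), Rpl19 at 0.29 ± 0.11 (limma adjusted p = 0.676) and Rpl17 at 0.34 ± 0.13 (limma adjusted p = 0.678).

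For lithium the median interaction was 0.17 in HT and -0.21 in WT, with 20 and 25 members at an unadjusted p under 0.05. In HT it was 0.052 with the slopes and 0.216 with depth as a covariate. In WT it was -0.197 with the slopes and -0.099 with depth as a covariate. WT lithium females had 33.9 to 35.9 M reads and WT lithium males 25.1 to 32.4 M. WT vehicle females had 28.1 to 29.3 M and WT vehicle males 26.9 to 30.3 M. Depth and sex thus cannot be told apart among the WT lithium libraries, nor in their interaction values. Among the smallest in HT were Rpl37 at 0.55 ± 0.17 (limma adjusted p = 0.246) and Rpl12 at 0.48 ± 0.16 (limma adjusted p = 0.282). In WT Rpl22l1 had -0.85 ± 0.18 (unadjusted p = 2.64e-05, limma adjusted p = 0.137) and Rpl39 -0.58 ± 0.14 (limma adjusted p = 0.201). Without WT vehicle female replicate 4 the WT count was 2. For these sex interactions edgeR and DESeq2 each gave 0 calls.

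Rpl10 had the largest fold change of the called members in HT under fluoxetine, and its copy did not share it. In fluoxetine HT females Rpl10 had 437, 484, 495, 526 and 917 normalized counts, and in fluoxetine HT males 466, 636, 774, 861 and 1010. In vehicle HT females it had 779, 1038, 1122, 1148 and 1329, and in vehicle HT males 748, 1088, 1147, 1156 and 1509. The ranges overlapped, with 6 of 10 fluoxetine HT libraries below every vehicle HT library. Its log2 fold change was -0.78 ± 0.15 (limma adjusted p = 0.000497). Against lithium in HT, where libraries had 728, 1151 and 1353 normalized counts, the log2 fold change was -0.82 ± 0.15 (limma adjusted p = 3.72e-05).

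In WT, Rpl10 had 459, 836 and 1220 normalized counts in fluoxetine libraries, 874, 997 and 1377 in lithium libraries and 439, 1050 and 1312 in vehicle libraries. Its log2 fold change was -0.22 ± 0.15 for fluoxetine against vehicle (limma adjusted p = 0.627) and -0.33 ± 0.15 for fluoxetine against lithium (limma adjusted p = 0.142). For the sum of Rpl10 and its copies the second value was -0.12 ± 0.04, which was called (limma adjusted p = 0.0468). For lithium against vehicle Rpl10 alone had 0.04 ± 0.15 in HT and 0.11 ± 0.15 in WT.

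Rpl10-ps3, whose coding bases equal those of Rpl10, averaged 2869 normalized counts over all libraries against 966 for Rpl10. Its values were 2412, 2783 and 3098 in fluoxetine HT libraries against 2193, 2723 and 3215 in vehicle HT libraries, almost fully overlapping. The log2 fold change of Rpl10-ps3 was 0.04 ± 0.07 (limma adjusted p = 0.727). Rpl10 made up 12.4 to 29.5% of the Rpl10 and Rpl10-ps3 counts in fluoxetine HT libraries against 19.5 to 40.8% in vehicle HT libraries. With the copies added, the sum had 3298, 3464 and 3601 normalized counts in fluoxetine HT libraries against 3597, 3809 and 4137 in vehicle HT libraries, and the ranges met only at their ends. The sum fell by a log2 fold change of -0.15 ± 0.04 (limma adjusted p = 0.0139), close to the members' median of -0.20. Its spread was 104 in fluoxetine HT and 164 in vehicle HT libraries (SD, n = 10 each), against 212 and 226 for Rpl10 alone. How reads were divided between genes with the same coding bases was not tested.

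**Figure D4:**
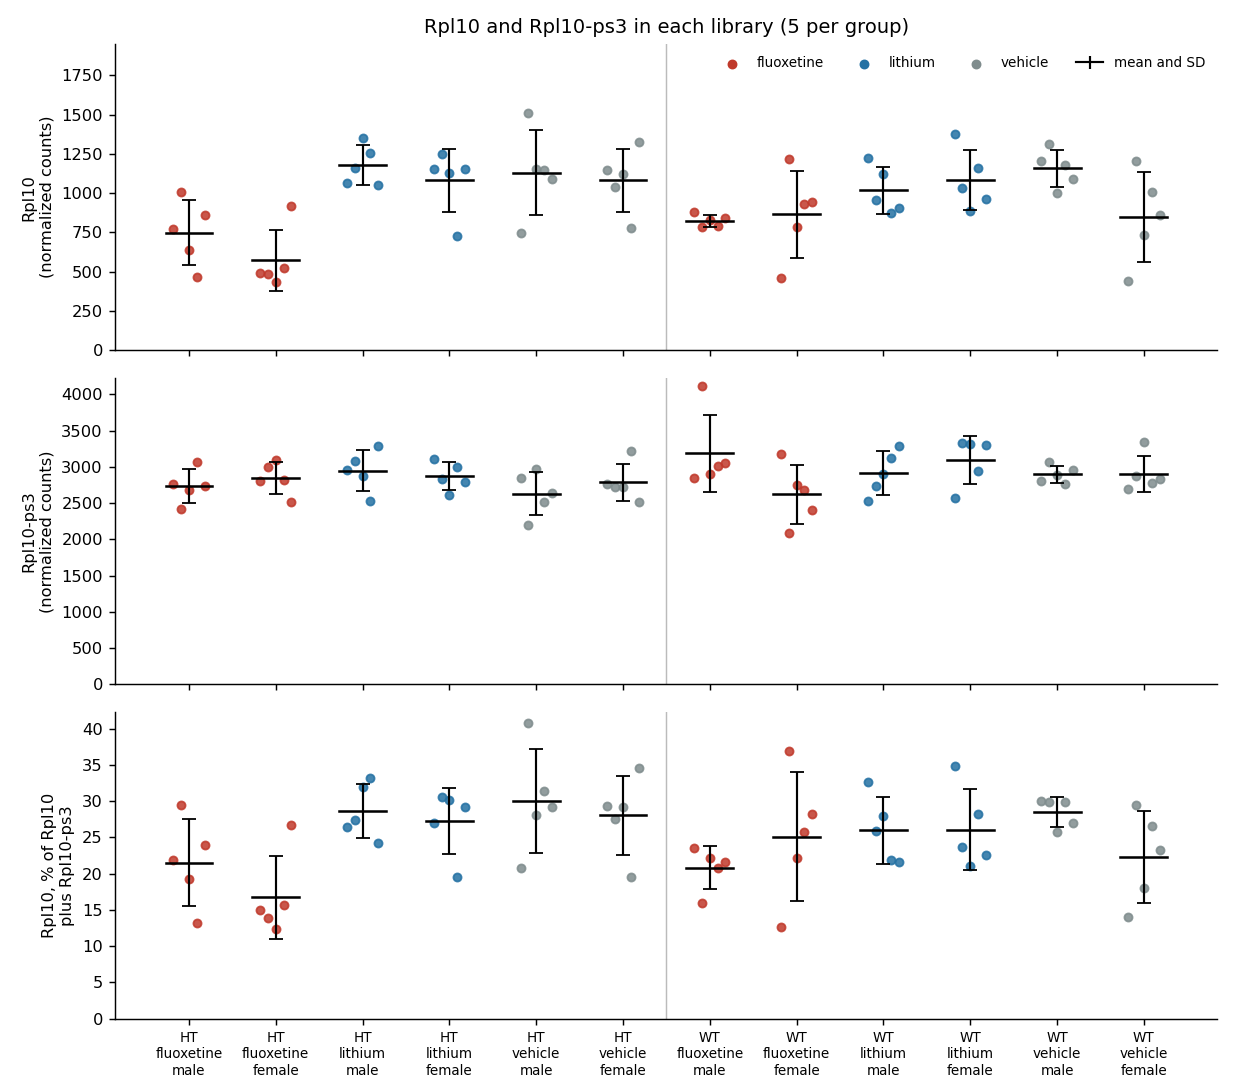
Normalized counts of Rpl10 (top) and Rpl10-ps3 (middle) and the percent of their summed counts listed under Rpl10 (bottom) in each library, by genotype label, treatment and sex; bars are means and whiskers SDs of 5 libraries. Rpl10 was low in fluoxetine HT libraries while Rpl10-ps3 averaged 2869 normalized counts over all libraries and showed no such drop.

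Rps27, a zinc-binding small-subunit protein, also has a copy listed higher than itself. Its coding bases, 252 in all, equal those of Rps27rt on chromosome 9, which is annotated as protein-coding. Rps27 had 38.7, 51.6 and 95.6 normalized counts in fluoxetine HT libraries against 39.6, 64.3 and 391 in vehicle HT libraries. The vehicle maximum was HT vehicle male replicate 1, where the other 4 males had 47.2 to 65.1. Its log2 fold change of -0.75 ± 0.41 was not called (limma adjusted p = 0.258). The sum of Rps27 and its copy had 758, 941 and 1204 normalized counts in fluoxetine HT libraries against 1087, 1189 and 1301 in vehicle HT libraries. That sum fell by a log2 fold change of -0.36 ± 0.09 (limma adjusted p = 0.00817). Rps27rt by itself had -0.27 ± 0.12 (limma adjusted p = 0.12).

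With all copies added to their members 47 of 82 fell with fluoxetine in HT, 43 of them called without the copies too, and the median was -0.18. In that fit 1833 of all genes were called. Of the 34 members with a copy 12 fell as listed, with a median of -0.17, and of the 48 without one 31 fell, with a median of -0.21. Rpl12 with its copies had a log2 fold change of -0.11 ± 0.05 (limma adjusted p = 0.188) for fluoxetine against vehicle in HT. For Rpl5 with its copy that value was -0.10 ± 0.04 (limma adjusted p = 0.129). Against lithium in HT, Rpl12 alone fell by -0.32 ± 0.08 (limma adjusted p = 0.00267), and with its copies it had -0.09 ± 0.05 (limma adjusted p = 0.248). Against lithium in WT, Rpl36a lost its call when its copies were added.

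Outlying members were those lying more than 0.4 from the members' median in log2 fold change in at least 1 of the 9 comparisons of treatments or labels. There were 5, Rps27 at 0.755, Rpl10 at 0.581, Rpl22l1 at 0.529, Rplp1 at 0.517 and Rps29 at 0.423 from the median. The value of Rps27 came from lithium against vehicle in HT, where it had a log2 fold change of -0.69, not called. That was -0.42 without HT vehicle male replicate 1 and 0.13 with its copy added. Short of the limit lay Rpl36 at 0.396, Rpl35 at 0.368 and Rpl39 at 0.339. Rpl3l reached 0.596 but was below the mean of 50 normalized counts.

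Members with short coding sequences had the more negative fold changes under fluoxetine, a relation looked at after the values were seen. In HT against vehicle, Spearman's rho of log2 fold change with coding length was 0.445 over the 82 members and 0.147 over 15064 other coding genes. Of the 27 members with at most 396 coding bases 17 fell, with a median of -0.28, and of the 27 with at least 582 coding bases 10 fell, with a median of -0.14. In WT against lithium rho was 0.528 over the members and 0.221 over the other genes, with 16 and 3 of 27 called lower. In WT against vehicle rho was 0.448, with 0 calls. These comparisons share the fluoxetine libraries or lie beside the length slopes of the libraries given above.

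**Figure D5:**
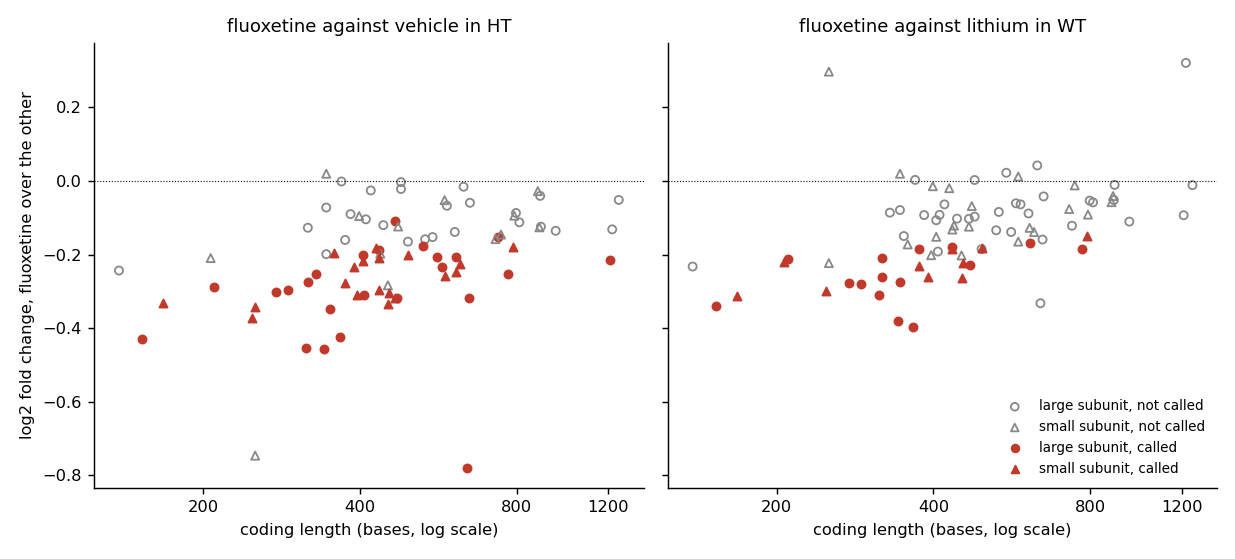
Log2 fold change (vertical axis) against coding length in bases (horizontal, log scale) of the 82 ribosomal protein genes, for fluoxetine against vehicle in HT (left) and fluoxetine against lithium in WT (right); filled red symbols passed limma's adjusted p of 0.05. Short members lie lower on average, with Spearman's rho of 0.445 and 0.528.

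Other genes of the translation machinery were counted in the same comparisons. Of 26 translation factors and related TOP genes 3 rose and 3 fell with fluoxetine in HT, with a median of -0.01, beside 4.7% of all genes higher and 5.54% lower (limma). Of 30 ribosome assembly genes 1 rose and 1 fell, with a median of 0.02. Of 78 mitochondrial ribosomal protein genes 1 rose and 12 fell, with a median of -0.06. Against lithium in HT 8 of the 26 translation factors and related TOP genes rose and 4 fell. That list was not split into TOP genes and others. There 6 assembly genes rose and 7 fell, and 3 mitochondrial genes rose and 28 fell, beside 12.2% of all genes higher and 12.6% lower. In WT against vehicle none of these lists had a member called (limma). The differences between lists were not tested.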

How the data were processed

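Libraries were made from total RNA with a stranded Illumina mRNA kit, per the labels' protocols. Per the submitters' processing notes, the tools were Salmon 0.11.2, R 3.6.0 and DESeq2 1.19.11 with GRCm38; how reads shared by several genes were divided is not given in the sources used here. The authors deposited 1 table of normalized counts, read here as a signal: each value is a count divided by the library's size factor. Dividing by the value of 1 read gave whole reads for 100% of values within 0.01, with 25.1 to 36.6 M reads per library and size factors of 0.85 to 1.25. Intervals and errors cover the spread among these libraries only.

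The main test was limma-trend (3.58.1, R 4.3.3) applied to values on the log2 scale after adding a pseudocount of 1. The model fitted the 12 groups with 48 residual degrees of freedom, over 17804 genes that reached 10 normalized counts in 5 or more libraries. Filtering removed 284 genes and no member. P-values are two-sided and Benjamini-Hochberg adjusted over all genes tested in each of 16 comparisons, with calls at 0.05. A fold change on this scale understates low genes. edgeR 4.0.16 and DESeq2 1.42.0 on the recovered reads were alternatives, as were other scalings, filters and pseudocounts, covariates for depth and for length and GC slopes, a replicate block and leaving out each library. The fit was tested on simulated data. Gene names, lengths and coding sequences came from GENCODE M21 (18077 of 18088 identifiers matched), and copies from blastn 2.17.0. Named were outlying members, up to 4 called members with the smallest p (3 uncalled ones where fewer than 5 were called), X-linked members, paralogues, stalk genes and the 5 highest and 5 lowest per kilobase. The members and lists were chosen with earlier results of these data known, and the addition of copies and the counts without the lowest vehicle library after the data were seen. Some results that the naming rule or the lists would give are not reported here.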

Additional observations from a re-analysis of the deposited data

Results flagged for a closer look

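In 108 groups of 5 libraries, 18 had one library apart from the other 4 by more than Dixon's 95% critical value of 0.71 of the group's range. Chance flags about 1 in 20 groups, and the measures share libraries.

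WT fluoxetine male replicate 2 had a mean log2 deviation over the members of 0.368, against -0.0092 to 0.020 in the others of its group. The same library had 4120 normalized counts of Rpl10-ps3 (others 2840 to 3058), 1694 of Rps27rt (951 to 1136), 691 of Rpl22l1 (398 to 438) and 1130 of Rpl39 (774 to 874). Its length slope was the lowest of all libraries, at -0.16. The part of that slope was not tested.

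WT lithium male replicate 5 had a mean log2 deviation of 0.236, against -0.045 to 0.035, and 8928 normalized counts of Rplp1, against 5756 to 6388. HT vehicle male replicate 1 had 1760 normalized counts of Rps29, against 2841 to 3260, and 391 of Rps27, against 47.2 to 65.1. Its GC slope was the lowest of all libraries, at -0.17, against 0.011 to 0.051 in the others of its group. The part of that GC slope was not tested.

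Rps27 also stood high in WT lithium male replicate 2 at 313 normalized counts (others 37.7 to 51.2), WT lithium female replicate 3 at 287 (25.5 to 66.8), WT fluoxetine female replicate 2 at 282 (31.2 to 77.5) and HT lithium male replicate 3 at 124 (35.4 to 54.3). Rpl10 had 917 normalized counts in HT fluoxetine female replicate 5 (437 to 526) and 728 in HT lithium female replicate 4 (1128 to 1248). Rpl10-ps3 had 3337 in WT vehicle female replicate 3 (2697 to 2871). Rplp1 had 2984 in HT fluoxetine female replicate 4 (3937 to 4283), and Rps29 had 4393 in HT lithium female replicate 1 (3313 to 3601).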

How the results depend on the processing

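The decrease with fluoxetine in HT kept its direction under every alternative run, with 31 to 58 members lower against vehicle, and 41 to 66 lower against lithium (1 higher with length and GC slopes). The fit with depth as a covariate is among these, though depths of fluoxetine and vehicle libraries did not overlap. Leaving out 1 library gave 36 to 53 and 59 to 67 called. With WT fluoxetine male replicate 2 and HT vehicle male replicate 1 both left out, counts were 26 for fluoxetine against vehicle in WT, 51 for fluoxetine against lithium in WT, 1 for lithium against vehicle in WT, 1 for the interaction of lithium and sex in WT and 6 for male against female. In the same order 671, 3054, 1151, 2 and 1038 of all genes were called, against 37, 1738, 814, 0 and 211 in the main fit. With depth as a covariate the member counts were 5 for lithium against vehicle in HT, 3 for it in WT, 40 for fluoxetine against lithium in WT and 16 for male against female. In that order 1855, 456, 1228 and 605 of all genes were called, against 2595, 814, 1738 and 211 in the main fit. With the slopes the member counts were 13 for lithium in HT, 5 for lithium in WT, 1 for HT against WT under fluoxetine and 0 for male against female. In that order 3598, 1215, 43 and 33 of all genes were called, against 2595, 814, 24 and 211 in the main fit. DESeq2 gave 3 members for HT against WT under fluoxetine and 7 for male against female, edgeR 2, a filter at 50 gave 2 and quantile normalization 0 for male against female. All genes called were 141 and 661 by DESeq2, 259 by edgeR, 273 with the filter and 206 with quantile normalization. The cause of these shifts was not tested.

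Leaving out 1 library gave 0 to 18 calls for fluoxetine against vehicle in WT, 12 to 50 for fluoxetine against lithium in WT, 3 to 13 for lithium against vehicle in HT and 0 to 1 in WT, the 1 without WT fluoxetine male replicate 2 or WT vehicle female replicate 1. It gave 0 to 1 for HT against WT under fluoxetine and under lithium, 0 to 2 for lithium and sex in WT, and 0 to 10 for male against female. Counts over all genes in the fits without 1 library are not reported here.

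Same-numbered libraries of different groups deviated together no more than others on average (mean correlation -0.00025 over 330 pairs, against 3.53e-05 over 1320). The mean runs over all groups, so it cannot exclude a pairing between some of them. With the replicate block 49 members were called for fluoxetine against vehicle in HT, 9 for lithium against vehicle in HT and 2 for male against female. In that order 1844, 2644 and 295 of all genes were called. The other counts were as without the block.

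Of 1676 values of named members under other settings, 1594 kept direction and side of the threshold, 28 lost the call, 44 gained one and 10 changed sign. Rpl10 under lithium in HT was -0.029 without both libraries, and -0.029 to 0.11 with 1 library left out. Rps27 with copies added was -0.21 for fluoxetine against lithium in WT and 0.13 for lithium against vehicle in HT. By edgeR and DESeq2 Rps27 was 0.13 and 0.13 for fluoxetine against vehicle in WT, and 0.044 and 0.034 for lithium against vehicle in WT. With 1 library left out Rps27 ran from -0.17 to 0.085 for fluoxetine against lithium in HT and from -0.41 to 0.0040 for fluoxetine against vehicle in WT, and Rpl3l from -0.25 to 0.020 for fluoxetine against vehicle in HT. With the slopes Rpl36a was -0.0088 for male against female, and Rpl19 was 0.044 against lithium and 0.017 against vehicle for fluoxetine in HT. None of these was called. Rpl3l averaged 7.39 normalized counts, where depth limits the precision of a fold change. The SD within groups on the log2 scale was 0.972 for Rps27, at a mean of 93.3 normalized counts. For Rps27l, at a mean of 127, it was 0.21. The source of the spread of Rps27 was not tested.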
